A study of Rattus norvegicus with 138 samples.

Results

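Transcripts of 10 genes that mark T cells and cytotoxic lymphocytes were measured by RNA sequencing in rat tibialis anterior (TA) muscle after volumetric muscle loss (VML), the surgical removal of a block of muscle too large to regrow. The genes are Cd3d, Cd3e, Cd3g, Lck, Cd4, Cd8a, Cd8b, Foxp3, Gzmb and Prf1, picked by symbol, and all 10 were found among the 16181 gene symbols used. Levels are in TPM, a transcript abundance that is scaled by transcript length and by the total of each library, so that levels of different genes can be set side by side.

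The rats were inbred male Lewis rats of about 4 months. Injured muscle came from rats with tissue taken out of the middle of 1 TA by a 6 mm biopsy punch, a rim of muscle being kept on each side, and sampled at 3, 7, 14 or 28 days post injury (DPI), either without repair or with a minced muscle graft (MMG) made from the tissue that had been cut out, and either labelled as running or not. The labels do not say how the rats ran. The contralateral muscle is the uninjured TA of the other leg of an operated rat. Control muscle, labelled sham at day 0, is the left and right TA of 2 rats, so its 4 values come from 2 animals. After libraries with fewer than 7000 symbols above 1 TPM were dropped, 4 control, 34 contralateral and 76 injured muscles remained, and the injured muscles numbered 24, 24, 16 and 12 at 3, 7, 14 and 28 DPI. Non-repaired, non-running rats gave 3, 8, 4 and 4 injured and 2, 4, 2 and 2 contralateral muscles on those days.

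The whole muscle was homogenised, so each value is an average over all of its cells, and more cells of a type cannot be told apart from more RNA per cell. The control rats belong to another numbered series of rats than every operated rat, so series and injury cannot be told apart in comparisons with control muscle. Both muscles of an operated rat belong to the same series. The read depth of each library is unknown, since TPM hold no read counts. Of 138 libraries, 13 were dropped with 901 to 5712 symbols above 1 TPM, all of them from operated rats at 3 or 7 DPI. In those libraries Cd3d and Gzmb were each listed at 0 in 12 of 13, Cd3e, Cd3g and Lck in 8 of 13, and Cd4 reached at most 7.87 TPM. The libraries kept had 7866 to 10948 symbols above 1 TPM. The muscle identity of the samples was clear: 10 adult fibre genes such as Myh4 and Ckm summed to between 215354 and 279707 TPM in control muscle, and to between 22767 and 85139 TPM in injured muscle at 3 DPI.

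The products of Cd3d, Cd3e and Cd3g are the CD3 chains that carry the signal of the T cell receptor into the cell, and Lck is the kinase that starts it. CD4 and CD8, the latter made of the products of Cd8a and Cd8b, are co-receptors that bind MHC class II and class I molecules and divide T cells into helper and cytotoxic cells. In rats these co-receptors are not limited to T cells: monocytes and macrophages carry CD4 and can carry CD8, and natural killer (NK) cells carry the CD8 alpha chain. Foxp3 is the transcription factor that defines regulatory T cells, which gather in injured muscle and aid its repair. Granzyme B (Gzmb) and perforin (Prf1) are the protease and the pore-forming protein that cytotoxic T cells and NK cells release to kill target cells.

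RefSeq start site windows on the GRCr8 build, each holding a start and mostly the bases before it, were found for 8 of the 10 genes (9 windows, 2 of them of Lck). They are shown for the 3 CD3 genes and for Cd8a and Gzmb, 1 gene each of the co-receptors and of the killing genes. The Cd3g window is chr8:54183869-54184168 on the minus strand, Cd3d chr8:54185269-54185568 on the plus strand, Cd3e chr8:54211721-54212020 on the minus strand, Cd8a chr4:104923866-104924165 on the plus strand and Gzmb chr15:34462420-34462719 on the minus strand. Each is written 5′ to 3′ on the strand of its gene, with capitals marking AGGAAG, a core bound by ETS factors, and TGTGGT, a core bound by RUNX factors, on either strand, of which Cd8a has none.
Cd3g: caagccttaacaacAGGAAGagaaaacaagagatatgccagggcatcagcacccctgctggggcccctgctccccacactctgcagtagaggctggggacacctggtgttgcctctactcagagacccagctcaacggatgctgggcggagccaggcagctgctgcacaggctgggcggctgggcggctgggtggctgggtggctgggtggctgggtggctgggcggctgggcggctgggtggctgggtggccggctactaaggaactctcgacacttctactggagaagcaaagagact
Cd3d: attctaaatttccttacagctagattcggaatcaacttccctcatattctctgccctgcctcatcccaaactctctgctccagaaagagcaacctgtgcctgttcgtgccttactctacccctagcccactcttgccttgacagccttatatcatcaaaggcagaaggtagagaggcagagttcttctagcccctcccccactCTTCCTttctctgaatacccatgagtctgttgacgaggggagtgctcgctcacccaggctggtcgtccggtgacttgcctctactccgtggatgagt
Cd3e: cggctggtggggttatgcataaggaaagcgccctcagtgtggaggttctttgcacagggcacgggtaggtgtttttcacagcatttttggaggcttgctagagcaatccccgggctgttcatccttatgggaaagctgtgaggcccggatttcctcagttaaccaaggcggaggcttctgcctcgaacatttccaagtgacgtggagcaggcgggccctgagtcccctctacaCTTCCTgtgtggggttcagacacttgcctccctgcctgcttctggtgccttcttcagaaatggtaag
Cd8a: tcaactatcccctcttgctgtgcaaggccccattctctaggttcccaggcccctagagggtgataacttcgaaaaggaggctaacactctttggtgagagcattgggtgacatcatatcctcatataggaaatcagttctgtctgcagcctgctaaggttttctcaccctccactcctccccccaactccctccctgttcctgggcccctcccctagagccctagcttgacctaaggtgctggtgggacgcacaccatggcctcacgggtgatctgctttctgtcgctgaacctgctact
Gzmb: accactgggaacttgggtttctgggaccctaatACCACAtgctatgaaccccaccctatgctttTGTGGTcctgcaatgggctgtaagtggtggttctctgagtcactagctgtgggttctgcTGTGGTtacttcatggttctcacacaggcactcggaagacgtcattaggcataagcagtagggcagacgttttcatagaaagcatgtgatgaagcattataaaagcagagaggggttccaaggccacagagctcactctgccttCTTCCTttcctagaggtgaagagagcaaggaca
Cd3g and Cd3d point away from each other with 1601 bases between their starts, and the start of Cd3e lies 26251 bases from that of Cd3d. AGGAAG or its reverse was present in 7 of the 9 windows, Cd8a and Foxp3 being the exceptions, against 34.5% of 33469 rat windows of the same length. TGTGGT or its reverse was present in 3 of 9 (Gzmb, Prf1 and 1 Lck window) against 17.3% of all windows. AGATAA was in 0 of 9 against 11.6%, and TATAAA in 2 of 9 (Gzmb and Foxp3) against 14.2%. These matches describe letters only, and no binding was measured here.

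The CD3 genes and Lck were close to 0 in control muscle and higher in every injured muscle on every day. Cd3e was listed at 0.17, 0.11, 0 and 0 TPM in the 4 control muscles. In non-repaired injured muscle at 3 DPI it stood at 3.69, 2.56 and 1.4 TPM, and at 7 DPI its lowest, median and highest values over 8 muscles were 2.04, 3.78 and 6.15 TPM. At 14 DPI the 4 muscles had 1.94, 1.56, 1.72 and 1.67 TPM, and at 28 DPI 1.19, 0.82, 0.76 and 0.91 TPM. No injured value overlapped a control value, and the level was highest at 7 DPI and lowest at 28 DPI. Here and below, the share of all genes whose groups likewise do not overlap was not counted.

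Groups were compared with limma on log2(TPM + 1), and fold changes are on that scale, which understates the change of genes below about 1 TPM. A gene was called when its adjusted p was under 0.05 over the 12482 genes tested and its log2 fold change lay beyond 1. Against control, Cd3e rose by 1.68 ± 0.25 (SE) at 3 DPI (adjusted p 2.93e-09), 2.13 ± 0.20 at 7 DPI (5.05e-17) and 1.35 ± 0.23 at 14 DPI (2.9e-07). Its difference of 0.84 ± 0.23 at 28 DPI had an adjusted p of 0.000893 but was under the fold limit. The other CD3 chains and Lck had the same course. Cd3g, the most abundant chain, had log2 fold changes of 2.34, 2.74, 1.61 and 0.91 at 3, 7, 14 and 28 DPI, Cd3d 1.48, 1.85, 1.18 and 0.62, and Lck 2.02, 2.32, 1.34 and 0.93. All 4 genes were called at 3, 7 and 14 DPI and none at 28 DPI. Their ratios of mean TPM to control at 28 DPI ran from 5.46 (Cd3g) to 13.1 (Cd3e). Injury moved much of the transcriptome, and the same rule called 47.7%, 43.6%, 23.1% and 19.3% of all tested genes at 3, 7, 14 and 28 DPI.

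Against the contralateral muscle, the same 4 genes rose at 3, 7 and 14 DPI and 0 of them were called at 28 DPI, where the rule called 34.6%, 43%, 19.1% and 12% of all genes. The log2 fold changes of Cd3g were 1.95 ± 0.38, 2.64 ± 0.25 and 1.63 ± 0.36 (adjusted p 4.1e-06, 1.88e-16 and 7.45e-05). At 28 DPI the difference of Cd3g was 0.73 ± 0.36 (adjusted p 0.0875). Some of these calls sat near the limit. Cd3e at 3 DPI, at 1.15, was not called without non-repaired injured replicate 1 or contralateral replicate 2 of that day. Cd3d and Lck at 14 DPI, both at 1.04, were not called without contralateral replicate 1 or injured replicate 3 of that day. With median-of-ratios size factors, which took the median log2 fold change of all genes against control at 3 DPI from 0.84 to 0.11, Cd3d and Cd3e at 3 DPI and Cd3d, Cd3e and Lck at 14 DPI were also not called against contralateral muscle.

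Over all arms, the 24 injured muscles at 7 DPI spanned 3.43 to 14.34 TPM of Cd3g (median 6.69), the 14 contralateral muscles 0.12 to 1.13 TPM (median 0.435) and the control muscles 0 to 0.5 TPM. For Cd3d, Cd3e, Cd3g and Lck, all 76 injured muscles lay above all 4 control muscles. They also lay above all contralateral muscles of the same day, except at 14 DPI, where 13 of 16 did for Cd3e and 11 of 16 for Cd3g. The exceptions came beside 1 contralateral muscle, from a running rat with a graft, at 1.61 TPM of Cd3e and 2.95 TPM of Cd3g. How many of all genes separate in this way was not counted, while 5472 of 12482 were called higher than control at 3 DPI.

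**Figure D1:**
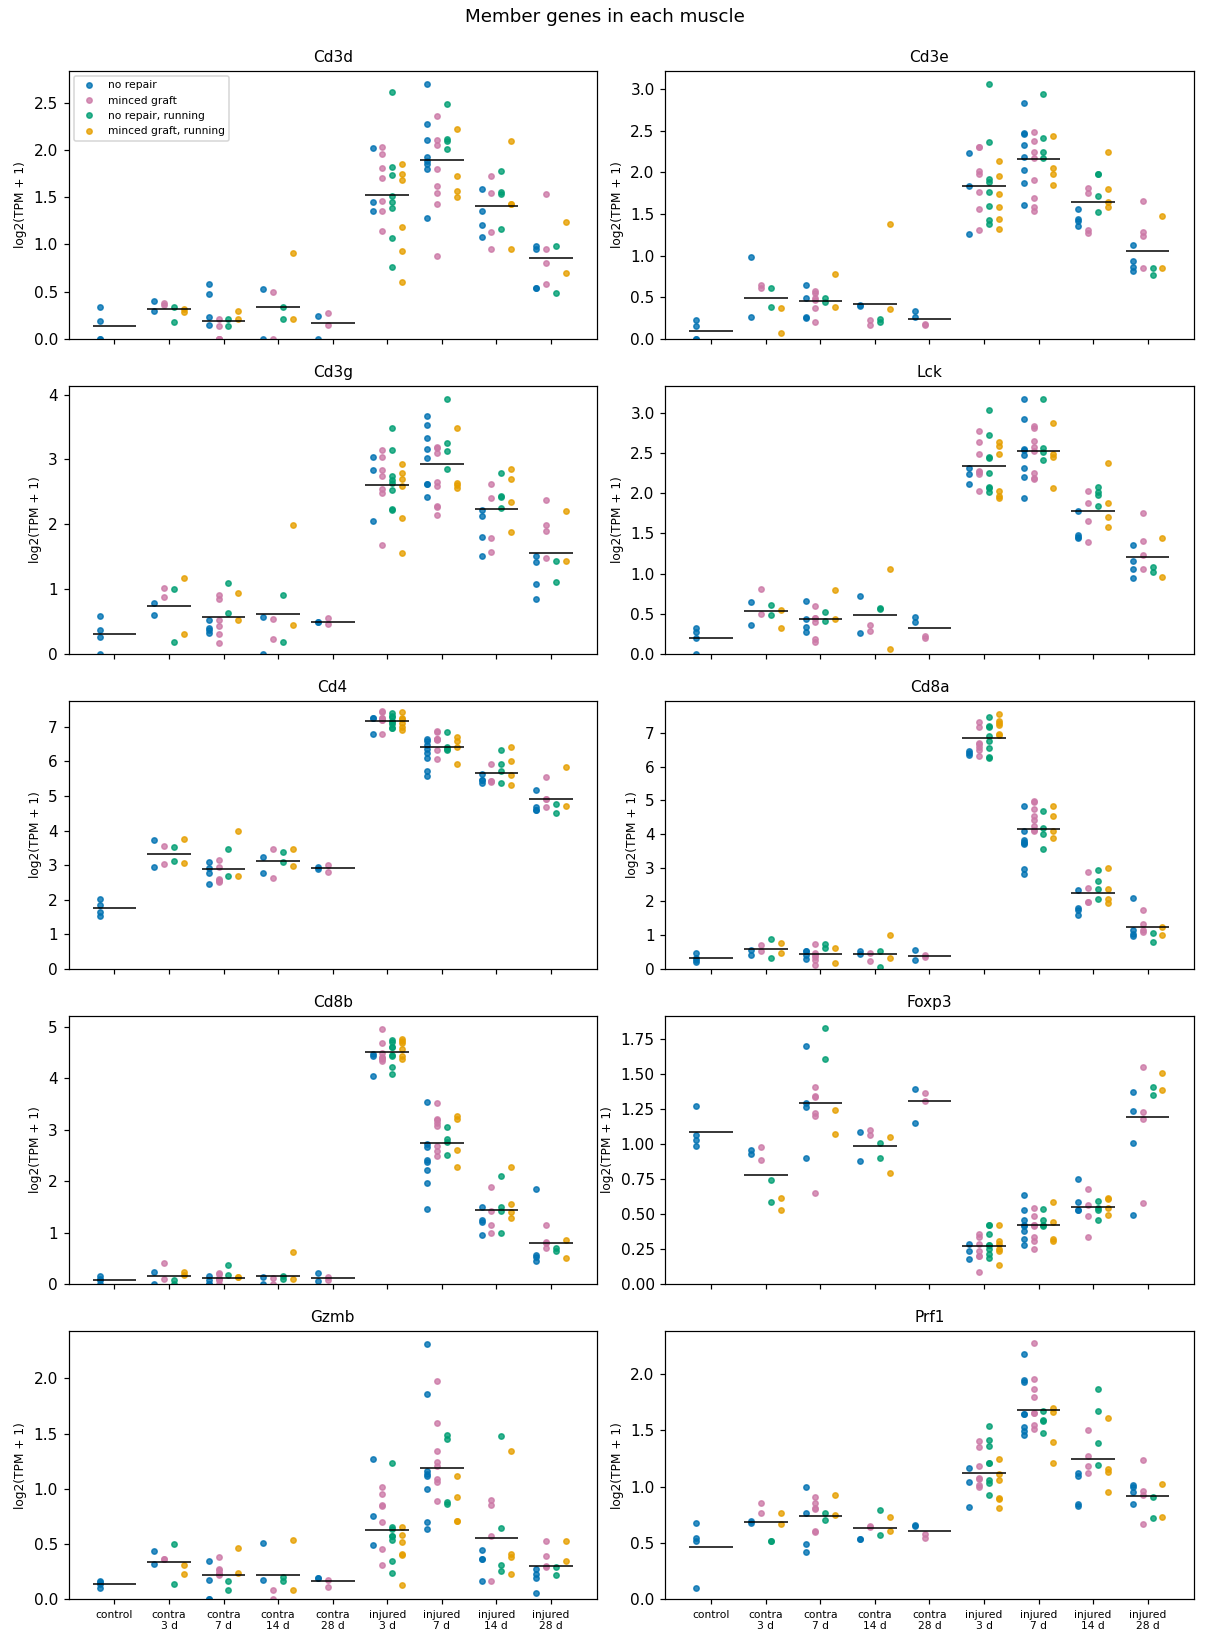
Level of each gene as log2(TPM + 1) in each of 114 muscles, in columns for control, contralateral (contra) and injured muscle by day, with points coloured by repair and running and a black line at the mean of the column. Cd4, Cd8a and Cd8b start highest at 3 days and are lower on each later day, the CD3 genes, Lck, Gzmb and Prf1 are highest at 7 days, and Foxp3 is lowest at 3 days.

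Cd8a and Cd8b had by far the steepest course of the 10 genes. Cd8a stood at 0.24, 0.15, 0.39 and 0.21 TPM in control muscle and at 82.95, 86.45 and 80.78 TPM in non-repaired injured muscle at 3 DPI, a ratio of means of 337. At 7 DPI the 8 non-repaired muscles had a lowest value of 6.01, a median of 12.5 and a highest value of 27.39 TPM. At 14 DPI the 4 muscles had 2.47, 2.34, 4.03 and 2 TPM, and at 28 DPI 1.24, 1.06, 0.97 and 3.3 TPM. No injured value at any of the 4 times overlapped a control value or a contralateral value of the same day, and the first 3 times did not overlap each other.

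Cd8a rose against control by 6.08 ± 0.28 on the log2 scale at 3 DPI (adjusted p 2.07e-34), 3.40 ± 0.22 at 7 DPI (4.54e-25), 1.55 ± 0.26 at 14 DPI (1.98e-07) and 1.01 ± 0.26 at 28 DPI (0.000448). The last of these was lost without control replicate 2, control replicate 4 or injured replicate 4 (the muscle at 3.3 TPM), and with size factors, where it was 0.87. Cd8b was listed at 0.07, 0, 0.06 and 0.12 TPM in control muscle and at 21.32, 20.61 and 15.62 TPM in the 3 muscles at 3 DPI. Its log2 fold changes were 4.24, 2.33 and 1.14 at 3, 7 and 14 DPI, all called, and 0.76 at 28 DPI, under the fold limit. In contralateral muscle neither gene differed from control by more than 0.17 on the log2 scale at any day, and the highest of 34 contralateral muscles had 0.99 TPM of Cd8a and 0.53 TPM of Cd8b. A further locus, LOC134486799, overlaps Cd8b on GRCr8. Kallisto was run with its default, which does not use strand, so reads from shared positions of the pair cannot be told apart, and the same holds for Lck and LOC120102985.

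Cd4 had the highest median of the 10 genes in 30 of the 31 groups (in the other, Cd8a did) and was the one gene called on all 4 days against both references. It stood at 2.12, 2.58, 3.03 and 1.89 TPM in control muscle. In non-repaired injured muscle it had 150.42, 152.6 and 110.85 TPM at 3 DPI, a median of 77.6 TPM between 47.24 and 99.72 at 7 DPI, 42.9, 40.36, 48.4 and 43.04 TPM at 14 DPI, and 23.12, 24.59, 23.28 and 34.8 TPM at 28 DPI. The values at 3 DPI lay above all later ones and those at 28 DPI below all earlier ones, and all of them lay above every control and contralateral muscle. Against control, Cd4 rose by 5.35 ± 0.24, 4.46 ± 0.20, 3.72 ± 0.23 and 3.00 ± 0.23 on the log2 scale at the 4 times. Against contralateral muscle it rose by 3.76 ± 0.29, 3.41 ± 0.20, 2.46 ± 0.28 and 1.84 ± 0.28, with an adjusted p of 9.83e-08 at 28 DPI, the largest of the 8.

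On the scale of TPM + 1, Cd4 was also the one gene of the 10 called in the uninjured leg against control, on each day. There the rule called 5.81%, 0.721%, 0.617% and 0.16% of all genes. With a pseudocount of 0.1 TPM more of the 10 were called at 3, 7 and 14 DPI. Ratios of mean TPM at 3 DPI ran from 0.814 (Foxp3) to 8.43 (Cd3e), the latter between means of 0.59 and 0.07 TPM. The non-repaired contralateral muscles had 12.29 and 6.72 TPM of Cd4 at 3 DPI, 6.59, 7.5, 4.48 and 5.88 at 7 DPI, 8.49 and 5.88 at 14 DPI, and 6.44 and 6.71 at 28 DPI. Every one exceeded the highest control value of 3.03 TPM, as did all 34 contralateral muscles over all arms, which spanned 4.48 to 14.79 TPM. The log2 fold changes against control, in order of day, were 1.58 ± 0.28 (adjusted p 8.74e-06), 1.06 ± 0.23 (0.00126), 1.26 ± 0.28 (0.00444) and 1.17 ± 0.28 (0.0234). The calls after 3 DPI were fragile: with the low-symbol libraries kept, none of the 3 held, and the difference at 7 DPI was 0.30. The call at 7 DPI was also lost without control replicate 4 or contralateral replicate 2, at 14 DPI without contralateral replicate 1, and at 28 DPI without control replicate 1, control replicate 4 or either contralateral muscle, and with control muscles averaged per rat. The 10 macrophage and monocyte markers summed to 15.1 to 35.6 TPM in control and 47.8 to 190.6 TPM in contralateral muscle, and in that comparison 8, 1, 1 and 0 of them were called higher on the successive days. Their part in the Cd4 values was not tested, and the series of rats cannot be told apart from the operation here.

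Foxp3 lay lower, not higher, in injured muscle. Control muscles had 1.09, 0.98, 1.04 and 1.41 TPM. Non-repaired injured muscles had 0.13, 0.22 and 0.18 TPM at 3 DPI, a median of 0.335 TPM between 0.21 and 0.55 at 7 DPI, and 0.44, 0.68, 0.5 and 0.44 TPM at 14 DPI. At 28 DPI they had 1.35, 1.01, 0.41 and 1.59 TPM. All values at 3, 7 and 14 DPI were below all control values, and at 28 DPI the groups overlapped.

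The log2 fold change of Foxp3 against control was -0.85 ± 0.13 at 3 DPI (adjusted p 5.1e-09), -0.66 ± 0.10 at 7 DPI (1.25e-08) and -0.49 ± 0.12 at 14 DPI (0.000188), each under the fold limit, and -0.06 ± 0.12 at 28 DPI (0.664). At these levels the added 1 TPM compresses the scale: the ratio of mean TPM was 0.156 at 3 DPI, 0.309 at 7 DPI and 0.456 at 14 DPI. With a pseudocount of 0.1 TPM the fold changes were -2.15, -1.48 and -1.0 and passed the limit, and with size factors they were -1.38, -1.21 and -0.94, of which the first 2 passed. Over all arms, 24 of 24, 24 of 24 and 16 of 16 injured muscles at 3, 7 and 14 DPI lay below every control and every same-day contralateral muscle. Contralateral muscle itself spanned 0.44 to 2.55 TPM and was called on no day. The share of all genes with injured muscles wholly below both references was not counted.

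The Foxp3 values have a further limit. On GRCr8 the span of the gene overlaps those of Ccdc22 and Ppp1r3f, so reads from any shared transcribed positions cannot be told apart. Such positions in build 6.0 were not checked. Ppp1r3f is not among the symbols used, and Ccdc22 went the opposite way, from a median of 7.63 TPM in control to 23.1 TPM in injured muscle at 3 DPI. In control muscle Foxp3 had a median of 1.07 TPM, above the medians of 0.055 to 0.245 TPM of the CD3 chains. Over the 31 group means of log2(TPM + 1), the genes with the highest Pearson correlation with Foxp3 were Tbc1d10c (0.913), Cd1d1 (0.895), Pstk (0.889), Fbp2 (0.885) and LOC100911483 (0.885). Fbp2, the muscle form of fructose bisphosphatase, went from 84 TPM in control to 9.95 TPM at 3 DPI. Of the 10 adult fibre genes 10, 6, 2 and 1 (Actn3) fell on the successive days, where 479, 274, 62 and 24 of the 12482 tested genes did, and the part of fibre content in the Foxp3 values was not tested.

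The killing genes were low throughout and rose at 7 DPI. Gzmb had 0.12, 0.07, 0.11 and 0.1 TPM in control muscle, 0.4, 1.41 and 0.69 TPM in non-repaired muscle at 3 DPI, and a lowest, median and highest value of 0.55, 1.18 and 3.97 TPM at 7 DPI. It then had 0.12, 0.29, 0.29 and 0.36 TPM at 14 DPI and 0.17, 0.21, 0.04 and 0.14 TPM at 28 DPI. The values at 3 and 7 DPI lay entirely above control, and those at 14 and 28 DPI did not.

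Gzmb rose by 1.10 ± 0.18 at 7 DPI (adjusted p 6.94e-08), whereas its differences on the other days, 0.70 ± 0.23 (0.00389), 0.20 ± 0.21 (0.4) and 0.05 ± 0.21 (0.846), were not called. Prf1 had 0.46, 0.6, 0.43 and 0.07 TPM in control muscle and 0.76, 1.06 and 1.24 TPM at 3 DPI. At 7 DPI its 8 values ran from 1.75 to 3.53 TPM with a median of 2.13. It rose by 1.27 ± 0.12 at 7 DPI (9.63e-17) and had differences of 0.55, 0.51 and 0.49 at 3, 14 and 28 DPI, all with an adjusted p of at most 0.00125 and all under the fold limit. Against contralateral muscle both genes were called at 7 DPI alone, at 1.11 ± 0.18 and 1.06 ± 0.12. The calls at 7 DPI were lost with size factors (0.83 for Gzmb and 0.86 for Prf1 against control, 0.87 and 0.53 against contralateral muscle), that of Gzmb also with the low-symbol libraries kept, and that of Prf1 against contralateral muscle also without contralateral replicate 1. At 7 DPI all 24 injured muscles of all arms lay above all control and contralateral muscles for both genes. The share of all genes that separate in this way was not counted, while 5171 of 12482 were called higher than control. Gzmb belongs to a family of closely related granzyme genes, and reads shared among them may be split between symbols.

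**Figure D2:**
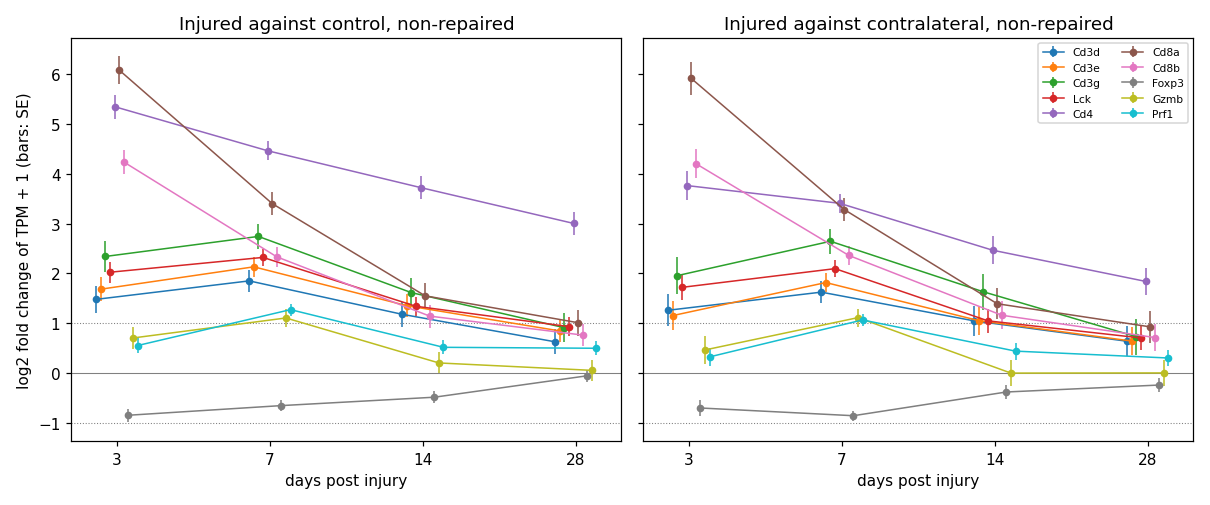
Log2 fold change of TPM + 1 with its SE for each gene by day, non-repaired injured muscle against control (left) and against contralateral muscle (right), with dotted lines at the fold limit of 1 in either direction. Cd8a falls from 6.08 to 1.01 against control over the 4 times, the CD3 genes and Lck are highest at 7 days, and Foxp3 is the one gene below 0 on all 4 days in both panels.

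Counted over the list, 7 of the 10 genes were called higher against control at 3 DPI, followed by 9, 7 and 2 (Cd4 and Cd8a) on the later days, and 0 were called lower. These counts stand beside the 47.7%, 43.6%, 23.1% and 19.3% of all genes given above. The median log2 fold change of the 10 genes was 1.85, 2.22, 1.26 and 0.80, beside 0.84, 0.81, 0.46 and 0.46 over all genes. Of the calls over all genes at 3 DPI, 5472 were higher and 479 lower, and with size factors 4622 of the 12482 genes were called, 59.2% of them higher, while the list then had 7 higher and 1 lower (Foxp3). Against contralateral muscle 7, 9, 7 and 1 (Cd4) of the 10 were called, all higher, beside 34.6%, 43%, 19.1% and 12% of all genes. At 28 DPI the count depended on the scale: with a pseudocount of 0.1 TPM it was 8 against control and 7 against contralateral muscle, where 4660 and 2986 of the 12482 genes were called on that scale.

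Changes between days were tested within injured muscle over all 4 arms. Rats of 14 and of 28 DPI each carry a number range of their own, so day and any difference between ranges cannot be told apart. This holds for the ratios by day below as well. From 3 to 7 DPI Cd8a fell by 2.64 on the log2 scale (SE 0.11, adjusted p 2.45e-36) and Cd8b fell by 1.73 (SE 0.10), and 0 of the other 8 genes passed the fold limit. In the same interval Cd3d, Cd3e, Cd3g, Lck, Gzmb, Prf1 and Foxp3 had differences between 0.16 (Foxp3) and 0.55 (Prf1) above 0, with adjusted p from 1.74e-13 to 0.0149, and Cd4 one of -0.73. The calls of 2 of 10 stood beside 6.47% of all genes. From 7 to 14 DPI Cd8a fell by 1.91 and Cd8b fell by 1.33, again 2 of 10 beside 8.46% of all genes. On the scale of TPM + 1, Cd8a alone was called from 14 to 28 DPI, at -1.07 (SE 0.14), beside 1.79% of all genes. In non-repaired, non-running muscle alone it was -0.54 and not called (0 of 10).

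From 3 to 28 DPI 5 of the 10 genes fell past the limit, beside 31.2% of all genes: Cd8a fell by 5.62, Cd8b fell by 3.72, Cd4 fell by 2.24, Lck fell by 1.13 and Cd3g fell by 1.05. The call of Cd3g was lost without replicate 1 of the non-repaired muscles at 3 DPI or replicate 2 of the running grafted muscles at 28 DPI, and those of Cd3g and Lck with size factors, at -0.60 and -0.71. Foxp3 differed by 0.98 in the other direction over that interval, just under the limit, and passed it with a pseudocount of 0.1 TPM, with size factors, and without replicate 2 of the grafted or replicate 3 of the non-repaired muscles at 28 DPI. Foxp3 in all 12 muscles at 28 DPI spanned 0.41 to 1.93 TPM, above the 0.06 to 0.34 TPM of all 24 at 3 DPI.

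The co-receptor genes exceeded the CD3 genes early and came closer to them later. In each injured muscle, Cd8a was divided by the mean of Cd3d, Cd3e and Cd3g. The ratio had a median of 37.6 at 3 DPI (12.2 to 95.4 over 24 muscles), 3.86 at 7 DPI (1.92 to 7.73), 1.52 at 14 DPI (0.892 to 2.89) and 0.969 at 28 DPI (0.609 to 2.65 over 12 muscles). The ranges at 3 and 7 DPI did not overlap. By arm, the medians at 7 DPI were 7.22 (3.71 to 7.72) in grafted and 2.38 (1.92 to 4.34) in non-repaired muscle of non-running rats, and 5.52 and 2.85 in running rats. At 3 DPI grafted medians were likewise higher in both running states, and at 14 DPI in non-running rats alone. At 28 DPI they were lower in both, at 0.871 against 1.44 in non-running and 0.782 against 0.967 in running rats. These differences between arms were not tested. Between 3 and 28 DPI the ratio differed 34.8-fold in geometric mean (two-sided permutation test, p 2e-05, the smallest that 100000 resamples can give, adjusted p 3e-05 over 6 ratios). Cd8b over CD3 differed 12.6-fold and Cd4 over CD3 1.95-fold at the same p. The ratio of Cd4 to CD3 had a median of 43.7 at 3 DPI and of 19.0, 20.1 and 24.6 at 7, 14 and 28 DPI.

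The CD8 chains also changed against each other, from a median Cd8a to Cd8b ratio of 5.23 (3.89 to 7.67) at 3 DPI to 1.94 (1.26 to 2.94) at 28 DPI, a 2.76-fold difference at the same p, with no overlap. Within the receptor complex the ratios moved little. Lck over CD3 differed 1.24-fold (permutation p 0.00994, adjusted p 0.0119). Cd3g over Cd3d had medians of 2.73 and 2.56 (permutation p 0.187, adjusted p 0.187). The ratios of this and the preceding paragraph were chosen after the levels had been seen, so their p-values give no independent support.

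**Figure D3:**
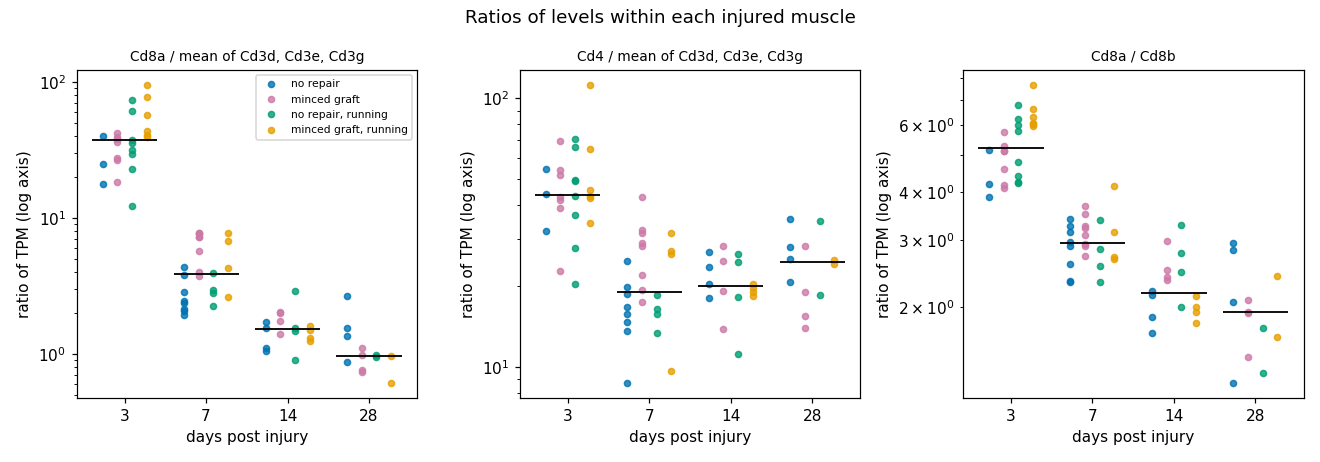
Ratio of TPM within each of 76 injured muscles by day on log axes, Cd8a to the mean of the CD3 genes (left), Cd4 to the same mean (middle) and Cd8a to Cd8b (right), coloured by repair and running, with a line at the median of each day. The left ratio goes from a median of 37.6 at 3 days to 0.969 at 28 days, the middle one from 43.7 to 24.6, and the right one from 5.23 to 1.94.

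Gene by gene, the levels of the co-receptors followed other genes than those of the CD3 chains. Over the 31 group means, the genes most like the mean of the CD3 chains by Pearson correlation of log2(TPM + 1) included Ctsw (0.991), a protease of cytotoxic lymphocytes, Cxcr3 (0.989), a chemokine receptor of activated T cells, Lck (0.986) and Cd5 (0.984). Those most like Cd4 were Gas7 (0.994), Adgre1 (0.993), the macrophage marker F4/80, Gm2a (0.993), Rab3il1 (0.993) and Ccl6 (0.992). Those most like the mean of Gzmb and Prf1 were Ccdc64 (0.962), Dao (0.962), Cd27 (0.956), Gja5 (0.952) and Tnfrsf14 (0.95). For the mean of Cd8a and Cd8b, a reference added after its values had been seen, they were Ccnf (0.997), Tmem8a (0.997), Asf1b (0.996), Dlgap5 (0.996) and Mki67 (0.996), and Ccnf, Asf1b, Dlgap5 and Mki67 are expressed in dividing cells. These group means share libraries and the course over days, so the correlations only describe likeness.

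Lck, the kinase, correlated with the CD3 genes and less closely with the co-receptors and macrophage genes. Over 76 injured muscles with group means removed, Cd3d and Cd3g had a Pearson correlation of 0.847, Cd3e and Lck 0.82, and Cd8a and Cd8b 0.903, whereas with the 3 CD3 genes Cd8a had 0.332 to 0.425, Cd8b 0.296 to 0.414 and Cd4 0.328 to 0.359. Lck had 0.805 to 0.82 with the CD3 genes, 0.554 with Cd8a, 0.468 with Cd8b and 0.409 with Cd4. With the macrophage genes Cd68 and Csf1r it had 0.552 and 0.571, against 0.743 with Cd2 and 0.608 with Cd247, a further chain of the T cell receptor complex that NK cells also carry. Cd4 correlated at 0.747 with Cd68 and 0.831 with Csf1r, and at 0.388 with Cd2 and 0.328 with Cd247. Cd8a correlated at 0.755 with Cd68, 0.526 with Cd2 and 0.466 with Cd247, and Cd8b at 0.799, 0.459 and 0.315. Cd3e had 0.486 with Cd68, 0.659 with Cd2 and 0.543 with Cd247. For Cd3d and Cd3g the values with Cd247 (0.483 and 0.455) were no higher than those with Cd68 (0.483 and 0.456). Gzmb and Prf1 correlated at 0.663 with each other and at 0.643 and 0.601 with Nkg7, a granule protein of NK and cytotoxic T cells. That link was not particular to them: with Nkg7, Cd3e had 0.715, Lck 0.662, Cd3d 0.607 and Cd3g 0.531. Cd4, Cd8a and Cd8b had 0.248, 0.305 and 0.31 with it. Foxp3 had no correlation above 0.171 with any of the other 9 genes. The muscles share the scaling of TPM within a library, which enters every pair. Over days the co-receptors did not keep a fixed proportion to Cd68: from 3 to 28 DPI the median ratio of Cd4 to Cd68 went from 0.35 to 1.29 and that of Cd8a to Cd68 from 0.311 to 0.0592.

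**Figure D4:**
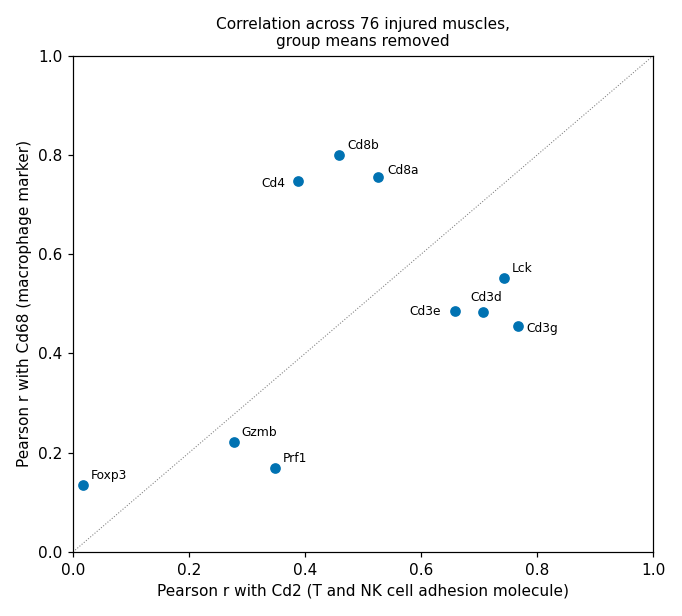
Pearson correlation of each gene with Cd2, an adhesion molecule of T and NK cells (horizontal axis), and with Cd68, a macrophage marker (vertical axis), over 76 injured muscles with group means removed, with a dotted line of equal correlation. Cd4, Cd8a and Cd8b lie above the line (0.747, 0.755 and 0.799 with Cd68), the CD3 genes, Lck, Gzmb and Prf1 lie below it, and Foxp3 is low on both axes.

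Levels within the list differed widely. At 3 DPI the median of Cd4 was 147 TPM, of Cd8a 113 TPM and of Cd8b 21.2 TPM over 24 injured muscles, beside 1.8 to 5.44 TPM for the CD3 genes. Foxp3 had a higher median than each CD3 gene in control muscle and a lower one than each in injured muscle at 3 DPI. Of the macrophage and monocyte markers all 10 were called higher than control on each day, and their summed level was 15.1 to 35.6 TPM in control muscle and 3846 to 7227, 594 to 4410, 395 to 1185 and 225 to 1259 TPM in injured muscle at 3, 7, 14 and 28 DPI. At 7 DPI, for example, Adgre1 rose by 3.74 and Lyz2 by 6.13 on the log2 scale. Dendritic cell markers had 6, 6, 4 and 4 of 8 called higher, among them Clec10a (6.21 at 3 DPI), and 1 (Cd1d1) lower at 3 and 7 DPI, where the rule called 47.7%, 43.6%, 23.1% and 19.3% of all genes. Neutrophil markers had 6, 4, 3 and 0 of 8 called higher (S100a8 4.84 and Ngp 0.51 at 3 DPI), a share near that of all genes at 7 DPI. Mast cell markers had 5, 6, 7 and 6 of 9 (Cpa3 2.75 and Mcpt2 0.41 at 7 DPI). B cell markers had 1, 1, 1 and 0 of 6, the 1 being Cd22 at 3 and 7 DPI and Mzb1 at 14 DPI. How much of the Cd4, Cd8a, Cd8b or Gzmb level came from such cells was not tested.

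The other lists are given as counts, to be read against the 47.7%, 43.6%, 23.1% and 19.3% of all tested genes called against control at 3, 7, 14 and 28 DPI. Of 18 other genes of T cell receptor signalling, 7, 9, 4 and 3 were called higher than control at 3, 7, 14 and 28 DPI and 1 (Prkcq) lower at 3 and 7 DPI, shares near those of all genes. At 7 DPI they ranged from Prkcq (-1.28 ± 0.20), a kinase that muscle fibres also express, through Cd2 (2.08 ± 0.18), an adhesion molecule of T and NK cells, to Cd28 (3.22 ± 0.32), the receptor of the second activating signal. Cd28 did not follow the CD3 genes: its mean went from 1.99 TPM in control to 3.36, 25.9, 43.3 and 52.9 TPM in injured muscle at 3, 7, 14 and 28 DPI, with a log2 fold change of 4.37 ± 0.36 at 28 DPI (adjusted p 4.8e-18). The 3 called at 28 DPI were Cd28, Lcp2 and Cd6.

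Among 16 further cytotoxic and NK cell genes, 7, 10, 7 and 4 were called higher than control and 0 lower, near the share of all genes at 3 and 28 DPI. At 7 DPI they ran from Klrg1 (0.05 ± 0.13) to Cst7 (3.37 ± 0.33), a protease inhibitor, with Ccl5 at 2.90 ± 0.26 and Gzmk at 1.85 ± 0.16. Of 8 regulatory T cell genes 3, 1, 1 and 0 were called higher, below the share of all genes on each day. At 3 DPI the 3 were Lrrc32 (1.79 ± 0.23), Il10 (1.75 ± 0.23) and Tnfrsf18 (1.05 ± 0.24), while Ikzf2, encoding the Helios factor, stood at -0.06 ± 0.22. Of 5 T helper cytokines and regulators that passed the filter on low values, 0 were called higher on any day and 1 (Il12rb2, -1.08 ± 0.19 at 3 DPI) lower. By limma, Ifng, the cytokine of Th1 and NK cells, differed by 0.95 ± 0.15 at 7 DPI (adjusted p 2.3e-08), just under the fold limit, as did Tbx21 (0.95 ± 0.10).

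Of 14 chemokines and receptors of T cells, 11, 11, 9 and 5 were called higher than control, with Cxcl10 at 4.10 ± 0.77 at 3 DPI and Ccl19 at 0.13 ± 0.22. Of 9 checkpoint receptors and ligands, 5, 4, 2 and 0 were called higher, near or below the share of all genes. At 7 DPI they ranged from Pdcd1 (0.41 ± 0.09), the PD-1 receptor, to Cd86 (2.10 ± 0.18), a ligand on antigen-presenting cells.

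Minced grafts and running left all 10 genes uncalled on every day. For the graft, compared in injured muscle over running and non-running rats, 0 of 10 genes were called by limma at 3, 7, 14 or 28 DPI, where 0%, 0.00801%, 0.032% and 0.00801% of all genes were. At an unadjusted p under 0.05 there were 1, 5, 0 and 2 of the 10, beside 1975, 3082, 541 and 359 of the 12482 genes. The largest difference in Cd8a was at 7 DPI, where grafted non-running muscles had a lowest, median and highest value of 16.01, 21.3 and 30.74 TPM against 6.01, 12.5 and 27.39 TPM without repair. The groups overlapped, and the log2 difference over both running states was 0.50 ± 0.16 (95% interval 0.19 to 0.82, adjusted p 0.0581). On the same day the CD3 genes lay the other way, with Cd3g at -0.42 (95% interval -0.77 to -0.06, adjusted p 0.151). Cd3g at 28 DPI had the widest difference, 0.63 (95% interval 0.13 to 1.14, adjusted p 1). Over the 10 genes and 4 days the 95% intervals for the graft reached from -0.77 to 1.14.

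For running, 0 of 10 were called at each time, where 0.016%, 0%, 0% and 0.264% of all genes were. At an unadjusted p under 0.05 there were 2, 1, 4 and 1 of the 10, beside 1959, 1903, 645 and 1636 of the 12482 genes. Cd8a at 3 DPI differed by 0.45 ± 0.16 (95% interval 0.13 to 0.77, adjusted p 0.133) and Foxp3 at 28 DPI by 0.33 ± 0.10 (95% interval 0.13 to 0.54, adjusted p 0.0783). At 28 DPI the 4 running muscles had 1.55 to 1.85 TPM of Foxp3 and the 8 non-running muscles 0.41 to 1.93 TPM. The 95% intervals for running over the same genes and days reached from -0.75 to 0.86. The interaction of graft and running was called for 0 of 10 genes at every time, beside 0%, 0%, 0% and 0% of all genes. An unadjusted p under 0.05 was found for 1, 0, 1 and 0 of the 10 and for 559, 394, 299 and 107 of the 12482 genes. These intervals do not show that the treatments act alike.

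**Figure D5:**
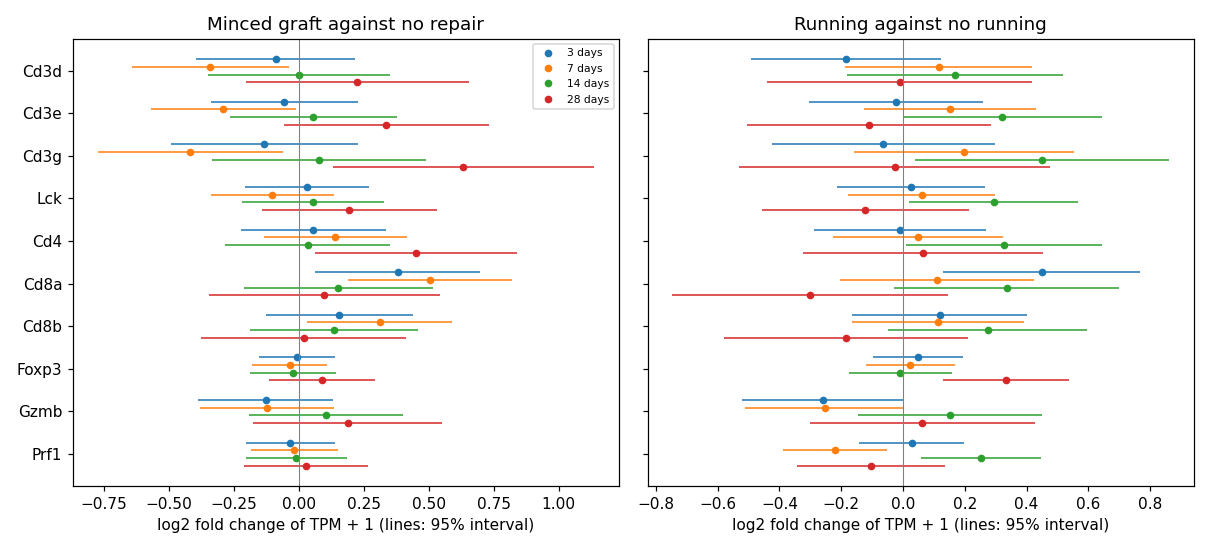
Log2 fold change of TPM + 1 (points) with its 95% interval (lines) for each gene, minced graft against no repair (left) and running against no running (right) in injured muscle, coloured by day. No gene was called in either panel, and the widest point estimates are 0.63 for Cd3g at 28 days (left) and 0.45 for Cd8a at 3 days and Cd3g at 14 days (right).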

How the data were processed

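RNA from whole TA muscle was sequenced in 138 libraries. The authors pseudo-aligned reads with Kallisto at default parameters to rat build 6.0 with GenBank annotation and deposited 1 table of TPM by gene symbol. The Kallisto version is not given in the sources used here, and its default does not use strand. The table as used holds 16181 symbols (1 incomplete row was left out) and ends in the letter T, so later symbols were not analysed here. Samples were grouped by day, injury, repair and running per the labels. Left out were 13 libraries with fewer than 7000 symbols above 1 TPM and 9 whose names and labels disagreed or gave no single group. The other 116 libraries came from 114 muscles of 78 rats in 31 groups, and 2 muscles with 2 libraries each were averaged. Replicate numbers count the muscles kept in each group, in sample order, and not its libraries. Depth per library cannot be read from TPM, and no counting interval is given. Nothing beyond the rat numbers says how separate the samples were, so p-values measure the spread between muscles.

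Genes with a mean above 0.1 TPM over these muscles (12482, with all 10 members) were fitted on log2(TPM + 1) in 1 limma 3.58.1 model with a mean-variance trend (R 4.3.3, 83 residual degrees of freedom), and p-values were adjusted by Benjamini-Hochberg over all genes. Calls needed an adjusted p under 0.05 and a log2 fold change beyond 1. Injured, contralateral and control muscle were compared in non-repaired, non-running rats, and graft, running, their interaction and days over the arms of injured muscle. Tested on simulated data for injured against control muscle at 7 DPI over 12482 genes, the fit recovered 99% of 100 genes changed by 1.5 and 99% of 100 changed by 3 on the log2 scale. The changed genes had a mean log2(TPM + 1) above 1, which leaves out genes as low as Foxp3 and Gzmb. Noise was normal and independent between muscles, and changes near the fold limit were not simulated. Ratios were compared by permutation with scipy 1.17.1. Numbered legs pair the 2 muscles of a rat: over 36 same-rat pairs, residuals correlated at a mean of 0.069, against -0.009 between rats, and a fit with the rat as block was an alternative.

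The 10 genes and the gene lists were chosen with earlier results of these data known. Text names all 10 members, and of each list or likeness ranking the extremes and called genes, except for items that are not reported here. The ratios, the within-group correlations and the likeness references for CD8 and Foxp3 were added after values had been seen. Alternatives were a pseudocount of 0.1 TPM, other filters, size factors, all labelled libraries, controls averaged per rat, other arms, adjusted p alone, and leaving out each muscle in turn in groups of 2 to 5 (71 fits). Leaving out replicate 1 of the non-repaired, non-running injured muscles at 7 DPI was added after seeing the data.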

Additional observations from a re-analysis of the deposited data

Results flagged for a closer look

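In groups of 4 to 10 muscles, 16 values stood apart from the rest of their group by Dixon's test, out of 160 groups of values tested, where chance gives about 1 in 20. At 3 DPI in running rats without repair, the highest of 8 muscles stood apart for Cd3d (5.1 TPM), Cd3e (7.4 TPM) and Gzmb (1.35 TPM). At 7 DPI the same non-repaired, non-running muscle (replicate 4) was highest of 8 for Cd8a (27.39 TPM) and Cd8b (10.59 TPM). Also at 7 DPI, the highest of 4 running muscles stood apart for Cd3g with a graft (10.21 TPM), and for Cd4 (114.41 TPM) and Lck (8.07 TPM) without repair. In contralateral muscle of grafted rats at 7 DPI, the lowest of 6 stood apart for Foxp3 (0.57 TPM) and the highest for Gzmb (0.3 TPM). At 14 DPI the highest of 4 stood apart for Cd4 with a graft (60.13 TPM), Gzmb with a graft and running (1.54 TPM) and Lck without repair (2.42 TPM). At 28 DPI 1 non-repaired muscle (replicate 4) was highest of 4 for Cd4 (34.8 TPM), Cd8a (3.3 TPM) and Cd8b (2.61 TPM), and Cd8a was not called against control without it.

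In the 9 libraries placed in no group, the level lay above the highest control muscle in 9 for Cd3e and Cd4, 8 for Prf1, 7 for Cd3g and Lck, 6 for Cd8a and Cd8b, 5 for Cd3d and Gzmb, and 3 for Foxp3.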

How the results depend on the processing

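No single-gene call changed direction under any alternative run, and the direction of results that were not called was not compared. Of the counts recomputed, 510 stayed within 1.5 times the reported count and 34 did not, and of the single-gene calls 1079 held and 38 were lost, a tally that leaves out calls gained. With the rat as a replicate block no call changed (7 of 10 genes against control at 3 DPI, as without it). With adjusted p alone, the counts of genes called were 8 against control and 4 against contralateral muscle at 28 DPI, and between days 10 (7 against 3 DPI), 10 (14 against 7), 9 (28 against 14) and 10 (28 against 3), where 8581, 5705, 8944, 10157, 5543 and 10582 of the 12482 genes passed that rule. With a pseudocount of 0.1 TPM they were 8 and 7 at 28 DPI against control and contralateral muscle, 3 (28 against 14 DPI), 8 (28 against 3 DPI), and for contralateral against control 3, 2 and 2 at 3, 7 and 14 DPI, where 4660, 2986, 519, 4928, 2311, 433 and 516 of all genes were called. With size factors they were 4 against contralateral muscle at 14 DPI and 1 against control at 28 DPI, where 1599 and 1637 of all genes were called. For contralateral against control, keeping all labelled libraries gave 0 at 7, 14 and 28 DPI (4145, 4 and 3 of all genes), and averaging controls per rat 0 at 28 DPI (7 of all genes). Adding grafted rats gave 2 against contralateral muscle at 28 DPI (1838 of all genes), and non-repaired, non-running muscle alone 0 for 28 against 14 DPI (52 of all genes). Leaving out 1 muscle of a group of 2 to 5 gave 0 to 1 for contralateral against control at 7, 14 and 28 DPI, 1 to 3 for injured against control at 28 DPI and 1 to 2 against contralateral muscle at 28 DPI. Leaving out replicate 1 of the non-repaired, non-running injured muscles at 7 DPI, an alternative chosen after seeing the data since a library of that rat is labelled with another day, changed no call and moved no member by more than 0.078 on the log2 scale. The cause of the changes above was not tested. Most of these genes lie below 10 TPM, and contrasts with control rest on 2 rats.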

Other observations

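Of the 9 libraries in no group, 8 are labelled as day 28 and carry a name and a label that point to opposite legs. The 4 named as control and labelled as injured had 21.6, 25.09, 24.26 and 31.95 TPM of Cd4, 1, 0.99, 1.06 and 2.05 TPM of Cd8a, and 1.24, 1.25, 1.02 and 2.1 TPM of Lck. The 4 named as injured and labelled as not injured had 5.66, 4.52, 6.33 and 6.28 TPM of Cd4, 0.33, 0.18, 0.31 and 0.87 TPM of Cd8a, and 0.32, 0.13, 0.16 and 0.68 TPM of Lck. Cd4 fell into 2 separate ranges, and the 4 labelled as injured were the higher ones. Foxp3 spanned 1.05 to 1.37 TPM in the former and 1.25 to 1.73 TPM in the latter. The ninth, labelled as day 3 and not injured, had 8.84 TPM of Cd4 and 0.94 TPM of Cd8a. The other libraries of its rat are labelled as day 7, and its injured muscle is replicate 1 of the non-repaired, non-running group at 7 DPI, so the day of that muscle rests on its own label.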
